A study of Mus musculus with 12 samples.

Results

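The genes of oxidative phosphorylation were followed in liver RNA of germ-free male C57BL/6j mice aged 13 to 16 weeks, animals kept without any gut microbiota. The ghrelin group (6 libraries) received rat ghrelin, a stomach peptide hormone that stimulates feeding and growth hormone release, under the skin at 10 µg per mouse once a day for 5 days. The PBS group (6 libraries) received phosphate-buffered saline. Injection and sampling carry the same zeitgeber time, ZT2. Members were taken by gene symbol: the nuclear Nduf, Sdh, Uqcr, Cyc1, Cox4 to Cox8 and Atp5 names, with pseudogene names dropped. Of 38087 gene rows, 88 were members, 81 of which passed the filter on low counts: 35 of complex I, 4 of complex II, 9 of complex III, 14 of complex IV, 15 of complex V and 4 assembly or coupling factors (Sdhaf1, Sdhaf2, Atp5s, Atp5sl). The rule also took names of subunits encoded by mitochondrial DNA, but the counts used here held 0 rows with a mitochondrial gene ID. These subunits were therefore not analysed, and the comparison below covers the nuclear genome only.

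Oxidative phosphorylation passes electrons from NADH and succinate along complexes I to IV of the inner mitochondrial membrane to oxygen, and complex V uses the resulting proton gradient to make ATP. Complexes I, III, IV and V are built from subunits of both genomes, whereas complex II is wholly nuclear. Hepatocytes are rich in mitochondria, and the nuclear genes of these complexes are known targets of NRF1, GABPA, YY1 and the estrogen-related receptors, with PGC-1alpha (Ppargc1a) as a coactivator.

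The promoters of some members carry the binding words of these factors, and the sequences are shown because the members are known to share such control elements. RefSeq windows of 300 bases (250 before to 50 after the gene start, build GRCm38.p6) were matched for 71 of the 88 members. The NRF1 word GCGCATGCG, searched on both strands, was in 8 of these 71 windows (11.3%) and in 1.81% of all 27025 windows. Each of the 8 is printed below, 5′ to 3′ on the gene's strand, with up to 10 bases on each side and the NRF1 word in capitals (where both strands match, the capitals cover both matches).
Atp5g2: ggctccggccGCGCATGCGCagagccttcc
Atp5k: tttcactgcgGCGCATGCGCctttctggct
Atp5l: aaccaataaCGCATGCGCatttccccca
Cox6a1: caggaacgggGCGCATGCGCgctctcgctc
Ndufa11: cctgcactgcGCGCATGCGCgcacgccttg
Ndufa8: tcgctggagaCGCATGCGCagatggtacc
Uqcr11: atcgccttcaCGCATGCGCtatacgtctg
Uqcrc1: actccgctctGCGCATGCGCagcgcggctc
The windows lie at chr15:102671070-102671099 (minus strand) for Atp5g2, chr5:108434430-108434459 (minus strand) for Atp5k, chr9:44920965-44920992 (minus strand) for Atp5l and chr5:115349101-115349130 (minus strand) for Cox6a1. Those of the others are at chr17:56717692-56717721 (plus strand) for Ndufa11, chr2:36049329-36049357 (minus strand) for Ndufa8, chr10:80406808-80406836 (minus strand) for Uqcr11 and chr9:108936668-108936697 (plus strand) for Uqcrc1. The word began from 241 bases before the start (Atp5l) to 30 bases after it (Uqcrc1).

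Cox6a1, which codes for a subunit of cytochrome c oxidase, held the NRF1 word and an ETS word, the core that GABPA binds. The 250 bases before its RefSeq start, at chr5:115348959-115349208 on the minus strand, are printed 5′ to 3′ with both words in capitals.
Cox6a1 promoter: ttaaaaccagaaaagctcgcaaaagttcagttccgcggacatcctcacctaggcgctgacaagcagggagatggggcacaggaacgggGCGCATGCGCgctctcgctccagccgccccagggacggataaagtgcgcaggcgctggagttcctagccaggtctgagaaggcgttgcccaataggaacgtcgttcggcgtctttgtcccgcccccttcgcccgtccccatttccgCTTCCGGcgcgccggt
The NRF1 word began 162 bases and the ETS word 16 bases before the start. Gene starts can differ between RefSeq and GENCODE, so the distances hold for the RefSeq start.

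The other words were likewise counted in members and in all windows of the same length. The ETS word CCGGAAG was in 17 windows of members (23.9% against 9.12% of all), the YY1 word AAGATGGCG in 7 (9.86% against 1.49%) and the estrogen-related receptor word AAGGTCA in 8 (11.3% against 4.66%). The CREB word TGACGTCA was in 4 (5.63% against 1.88%), and the SP1 word GGGCGG in 30 (42.3% against 35.9%). Both strands were searched, and none of the 6 words contains another. An NRF1, ETS or YY1 word was in 28 of the members' 71 windows, so most of these windows held none of these words. Of the windows of the 9134 tested genes with one, 3.77% held the NRF1 word, 17.8% the ETS word, 3.24% the YY1 word, 3.14% the CREB word and 3.26% the estrogen-related receptor word. The SP1 word was in 63.0% of these, more than in the members' windows. The members' windows had a median GC content of 57.3%, those of all genes 52.7% and those of tested genes 60.7%. A match describes the letters of a window and is not a measured binding site.

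Levels of the members were compared per transcript length, as RPKM (reads per kilobase of transcript, scaled to library size), over all 12 libraries. Levels in CPM, used further down, are counts scaled to library size with TMM factors and no length, and ± marks the SD over the 12 libraries for RPKM and over the 6 libraries of a group for CPM. The ATP synthase beta subunit Atp5b, which carries the catalytic sites, had the highest level of all members at the length of the principal transcripts, 585 ± 29.4 RPKM (SD over 12 libraries), followed by the alpha subunit Atp5a1 at 375 ± 17.4, Cox4i1 at 368 ± 17.9 and Ndufa4 at 340 ± 22.5. Atp5a1 and Cox4i1 differed by less than their SD, and Atp5b stood above both by more than any of these SDs. By complex, the median level was 64.6 RPKM for complex I, 133 for complex II, 162 for complex III, 166 for complex IV and 163 for complex V. Complex I had the lowest median, and its genes ran from 19.8 ± 2.21 RPKM (Ndufb4) to 218 ± 13.0 (Ndufb9).

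**Figure D1:**
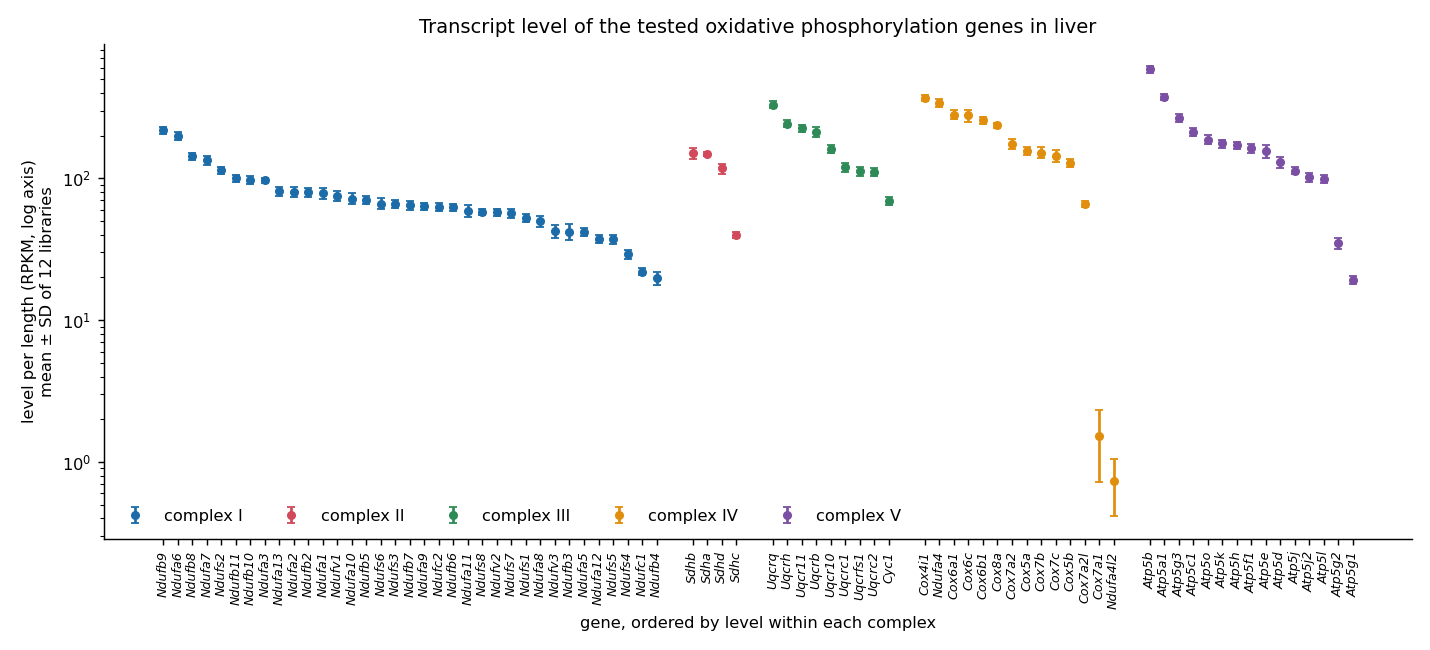
Level per length (RPKM, log axis) of the 77 tested subunit genes of complexes I to V, points and bars giving mean ± SD of 12 libraries, ordered by level within each complex. Most complex I genes lie below 100 RPKM, Atp5b is at 585, and the tissue isoform Cox7a1 and the paralog Ndufa4l2 lie near 1 RPKM.

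Levels also differed within complexes. In succinate dehydrogenase, the flavoprotein Sdha (149 ± 5.38 RPKM) and the iron-sulphur subunit Sdhb (150 ± 12.2) had like levels, the anchor Sdhd had 117 ± 9.55 and the other anchor, Sdhc, 39.9 ± 1.75. In complex III the small subunit Uqcrq was highest at 331 ± 19.0 RPKM, and cytochrome c1 (Cyc1) lowest at 69.4 ± 4.86. These levels and most of the orders depend on the length assigned to a gene. With the length of all annotated exons Atp5a1 was highest of all members at 296 RPKM, above Atp5b at 265. In complex I Ndufb9 was again highest (149 RPKM) and Ndufb2 lowest (6.46, with Ndufb4 at 10.0). In complex II Sdhd was highest at 117 RPKM, above Sdha at 105 and Sdhb at 76.6, with Sdhc again lowest at 39.0. In complex III Uqcr11 was highest at 157 RPKM, Uqcrq had 73.2, and Uqcrc1 (47.8) and Cyc1 (49.0) were lowest. The complex medians with this length were 42.1, 90.7, 108, 96.3 and 63.8 RPKM for complexes I to V, so the complex I median stayed lowest and that of complex V fell beneath that of complex II.

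Liver used 1 member of most isoform pairs. Cox4i1, Cox6a1, Cox6b1 and Cox8a, the general forms of their subunits, had 64855, 37961, 37467 and 30709 counts over all libraries. Their heart, muscle, lung or testis counterparts had 5 (Cox4i2), 11 (Cox6a2), 12 (Cox6b2), 7 (Cox8b) and 1 (Cox8c), and the other untested members were Cox7b2 with 1 count and Atp5l2 with 77. The heart and muscle form Cox7a1 had 147 counts, 1.52 ± 0.808 RPKM, where Cox7a2 had 175 ± 14.3 and the supercomplex factor Cox7a2l 66.2 ± 2.95. The summed level of 8 striated muscle markers was at most 0.182 CPM in any library, with Myh2 and Myh6 at 0. Ndufa4l2, a paralog of Ndufa4 known for its induction under low oxygen, had 164 counts and 0.734 ± 0.319 RPKM, against 340 ± 22.5 for Ndufa4.

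The c ring of ATP synthase is the exception, since Atp5g1, Atp5g2 and Atp5g3 encode the same mature protein behind different import signals. Atp5g3 gave 83.1 ± 1.05% of the summed RPKM of the 3 genes, Atp5g2 10.8 ± 0.899% and Atp5g1 6.03 ± 0.468%. The share of Atp5g1 rests on the median length of its principal transcripts, 4660 nt. With its shortest principal transcript, 596 nt, its level was 151 RPKM in place of 19.3, and the shares were 59.0% for Atp5g3, 33.4% for Atp5g1 and 7.68% for Atp5g2. Atp5g3 led under both lengths, and the order of the other two did not hold. The Atp5g3 share was 83.4% in PBS and 82.8% with ghrelin.

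Ghrelin changed no member past the threshold. By edgeR's quasi-likelihood test with Benjamini-Hochberg adjustment over 14170 genes, 0 of 81 members had an adjusted p under 0.05, where 15 genes (0.106%) did among all tested. DESeq2 and limma-voom also called 0 members, with 12 and 11 at an unadjusted p under 0.05, all higher. Among all 14170 genes, 890 and 918 were higher at that level in these 2 fits. The smallest adjusted p of a member was 0.252. At an unadjusted p under 0.05, 10 members (12.3%) were higher with ghrelin, beside 6.44% of all tested genes, and 0 were lower, beside 6.94%. In 0 members were all ghrelin values above all PBS values, beside 0.367% of all genes, and in 0 were they all below, beside 0.459%.

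Most members had small positive differences. The log2 fold change (ghrelin over PBS) was positive for 63 of 81 members and negative for 18, with a median of 0.05, beside 7087 positive of 14170 and a median of 0.00 for all tested genes. The members were measured closely: their median SE was 0.06, where all genes had 0.11. Their 95% interval lay within ±0.5 on the log2 scale for 78 members and within ±0.3 for 72. Most members are abundant, and the 6105 tested genes with a mean log2 CPM over 4 had a median SE of 0.07. Of these genes 46.3% were positive, and 7.01% were higher and 10.6% lower at an unadjusted p under 0.05. With trends of GC content and transcript length removed from the counts, 51 of 81 were positive and the median was 0.01. In that fit 5 members were at an unadjusted p under 0.05 (all higher) and 0 were called. Of all 14170 genes, 884 were higher and 744 lower at that level in the same fit, a share of higher genes near that of the members. The number of members at an unadjusted p under 0.05 was also 5 without the ghrelin 3 library, 6 without PBS 2, PBS 3 or PBS 4, and 17 with upper-quartile scaling. With upper-quartile scaling 1063 of all genes were higher and 834 lower at that level, against 913 and 983.

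**Figure D2:**
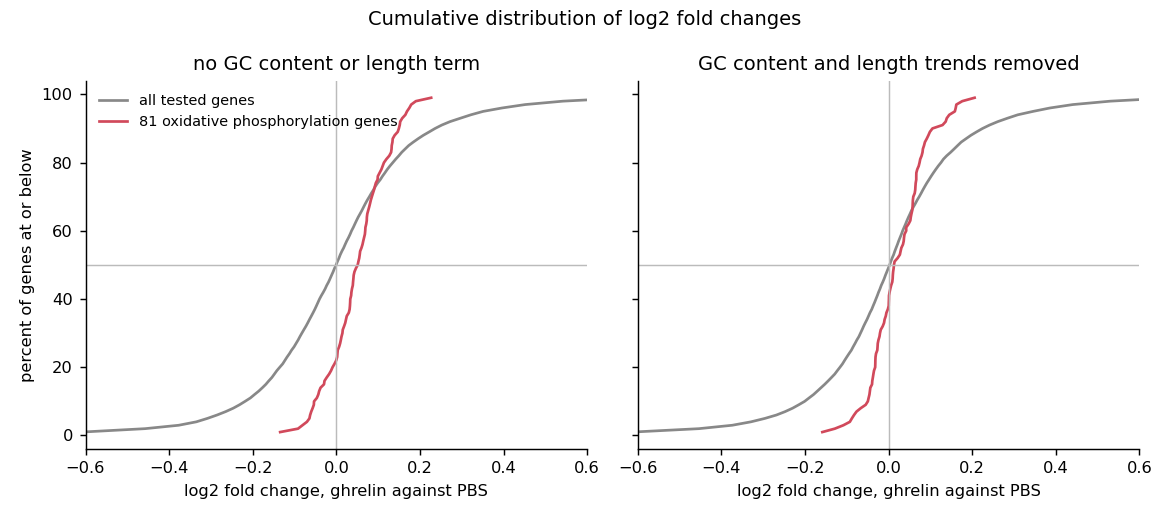
Cumulative percent of genes by log2 fold change (x axis, ghrelin against PBS) for the 81 members and all 14170 tested genes, without (left) and with (right) removal of GC content and length trends. On the left the members' curve crosses 50 percent at 0.05 and that of all genes at 0.00. On the right the members' median is 0.01.

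Length and GC content moved with these values. Across the tested genes, the log2 fold change had a Spearman rho of -0.17 with transcript length and 0.31 with GC content over 13930 annotated genes, and of -0.23 and 0.43 over the 79 members above 1 CPM, given as descriptions since genes of the same libraries are not independent. The 1212 other genes with a longest transcript under 1000 nt averaged 2.55 log2 CPM in PBS and 2.62 with ghrelin, a difference of 0.07. The 2751 other genes with a transcript over 5000 nt averaged 4.26 and 4.23, a difference of -0.04. The part of these features in the members' differences was not tested. The fit with both trends removed takes the trends from these same counts. It would also remove a difference between the groups that follows GC content or length.

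In complex I, 31 of 35 genes had positive log2 fold changes, with a median of 0.06, and 22 of 35 with a median of 0.05 once the GC content and length trends were removed. The 7 complex I genes at an unadjusted p under 0.05 (20% of 35, beside 6.44% of all genes) were all accessory subunits: Ndufs6, Ndufb10, Ndufa8, Ndufs5, Ndufb3, Ndufv3 and Ndufa11. With the trends removed 2 of 35 were at that level, both higher, beside 884 of 14170 genes higher in that fit. The 7 core subunits, which hold the flavin and the iron-sulphur clusters, gave 6 positive values with a median of 0.04 and 0 at an unadjusted p under 0.05. Among these, Ndufv1, the NADH-binding subunit, was at 120 ± 6.32 CPM in PBS and 131 ± 10.5 CPM with ghrelin (log2 fold change 0.13, SE 0.06), and Ndufs1, the largest, at 139 ± 1.61 and 133 ± 11.1 (-0.06, SE 0.06). The unadjusted edgeR p was 0.0501 for the core subunit Ndufs3 (log2 fold change 0.11, SE 0.05) and 0.0511 for Ndufv1, both just past the cut. The difference between core and accessory subunits was not tested.

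Ndufs6, a zinc-binding accessory subunit of the matrix arm (ENSMUSG00000021606, chr13:73319838-73328542 in GENCODE M21 on GRCm38), had the smallest p of all members. The level of Ndufs6 was lowest 32.9, median 36.0 and highest 37.7 CPM in PBS, and lowest 36.4, median 40.1 and highest 44.4 CPM with ghrelin. The groups overlapped, with the lowest ghrelin library inside the PBS range. The log2 fold change was 0.18 (SE 0.06; edgeR adjusted p = 0.252), with 0.14 after removal of the trends. An exon of Ndufs6 overlaps Mrpl36 on the opposite strand, and the strand setting of the counting is not given in the sources used here.

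The next complex I genes were alike in size. Ndufb10, of the membrane arm, ran from 65.4 over a median of 66.9 to 73.0 CPM in PBS and from 69.9 over 74.9 to 78.8 with ghrelin (0.13, SE 0.05; edgeR adjusted p = 0.292). Ndufa8, which faces the intermembrane space and holds the NRF1 word printed above, ran from 38.1 over 41.3 to 42.6 in PBS and from 41.6 over 44.6 to 49.4 with ghrelin (0.15, SE 0.06; edgeR adjusted p = 0.294). Ndufs5, also on the intermembrane side, ran from 17.8 over 18.5 to 19.4 and from 19.1 over 20.3 to 22.8 CPM (0.15, SE 0.06; edgeR adjusted p = 0.3003). In each of the 3 the ghrelin median lay above the highest PBS value, yet the lowest ghrelin library lay within the PBS range. With the trends removed the log2 fold changes were 0.06, 0.08 and 0.10.

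Complex II, succinate dehydrogenase, also serves the citric acid cycle, and 0 of its 4 genes were at an unadjusted p under 0.05. Sdha ran from 406 over a median of 431 to 452 CPM in PBS and from 415 over 435 to 455 CPM with ghrelin, a log2 fold change of 0.01 (SE 0.05; edgeR adjusted p = 0.951). The values of Sdhb were lowest 153, median 169 and highest 188 CPM in PBS and 152, 177 and 191 with ghrelin (0.02, SE 0.07). For Sdhc they were 120, 127 and 137 and, with ghrelin, 122, 125 and 133 (0.0015, SE 0.05). Sdhd, a membrane anchor, had the most negative value of the complex, with 139, 151 and 156 CPM in PBS and 114, 143 and 158 with ghrelin (-0.09, SE 0.07; edgeR adjusted p = 0.624), and its PBS values all lay inside the ghrelin range. All 4 intervals lay within ±0.3. The median of the 4 log2 fold changes was 0.01 and the difference of the mean log2 CPM -0.01, so the sign depends on the summary. With the trends removed 2 of 4 were positive and the median was -0.01.

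Complex III had 7 of 9 positive values with a median of 0.04, and 5 of 9 with a median of 0.0033 once the trends were removed. Its 4 smallest p-values belonged to the small subunits Uqcr10, Uqcr11 and Uqcrh (the hinge protein) and to the core protein Uqcrc1. Uqcr10 ran from 62.4 over a median of 66.9 to 75.3 CPM in PBS and from 67.1 over 73.9 to 76.0 with ghrelin (0.11, SE 0.06; edgeR adjusted p = 0.420). For Uqcr11 the means were 97.2 ± 5.33 and 104 ± 5.19 CPM (0.09, SE 0.05), for Uqcrh 129 ± 4.38 and 137 ± 8.32 (0.08, SE 0.05), and for Uqcrc1 191 ± 14.98 and 204 ± 14.1 (0.09, SE 0.07). With the trends removed the values were 0.03 for Uqcr10, -0.0047 for Uqcr11, 0.06 for Uqcrh and 0.06 for Uqcrc1. The catalytic subunits Cyc1 (0.03, SE 0.06) and Uqcrfs1, the Rieske iron-sulphur protein (0.02, SE 0.07), and the core protein Uqcrc2 (-0.06, SE 0.06) all had groups that overlapped.

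In complex IV 8 of 14 values were positive with a median of 0.04, and 9 of 14 with a median of 0.01 once the trends were removed. In both fits 1 of 14 was higher at an unadjusted p under 0.05. Of all genes 6.44% were, and 884 of 14170 with the trends removed. Cox6a1, whose promoter is printed above, ran from 144 over a median of 151 to 170 CPM in PBS and from 158 over 168 to 178 with ghrelin (0.13, SE 0.06; edgeR adjusted p = 0.315). The PBS 1 library, at 170 CPM, lay among the ghrelin values. With the GC content and length trends removed the log2 fold change of Cox6a1 was 0.03. The nuclear subunits Cox5a, with 97.0 ± 4.70 and 105 ± 6.44 CPM (0.11, SE 0.06), and Cox5b, with 108 ± 5.91 and 115 ± 7.39 (0.10, SE 0.06), were also positive. With the trends removed Cox5a rose to 0.16 and Cox5b fell to 0.07. Cox4i1, at 268 ± 9.04 and 281 ± 14.4 CPM, had 0.07 (SE 0.05), which turned to -0.02 with the trends removed. Cox7a2l, at 72.5 ± 3.71 and 69.9 ± 2.06 CPM, had -0.05 (SE 0.05). Exons of Cox4i1 and Cox5a overlap genes on the opposite strand (Emc8 and Gm26631).

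**Figure D3:**
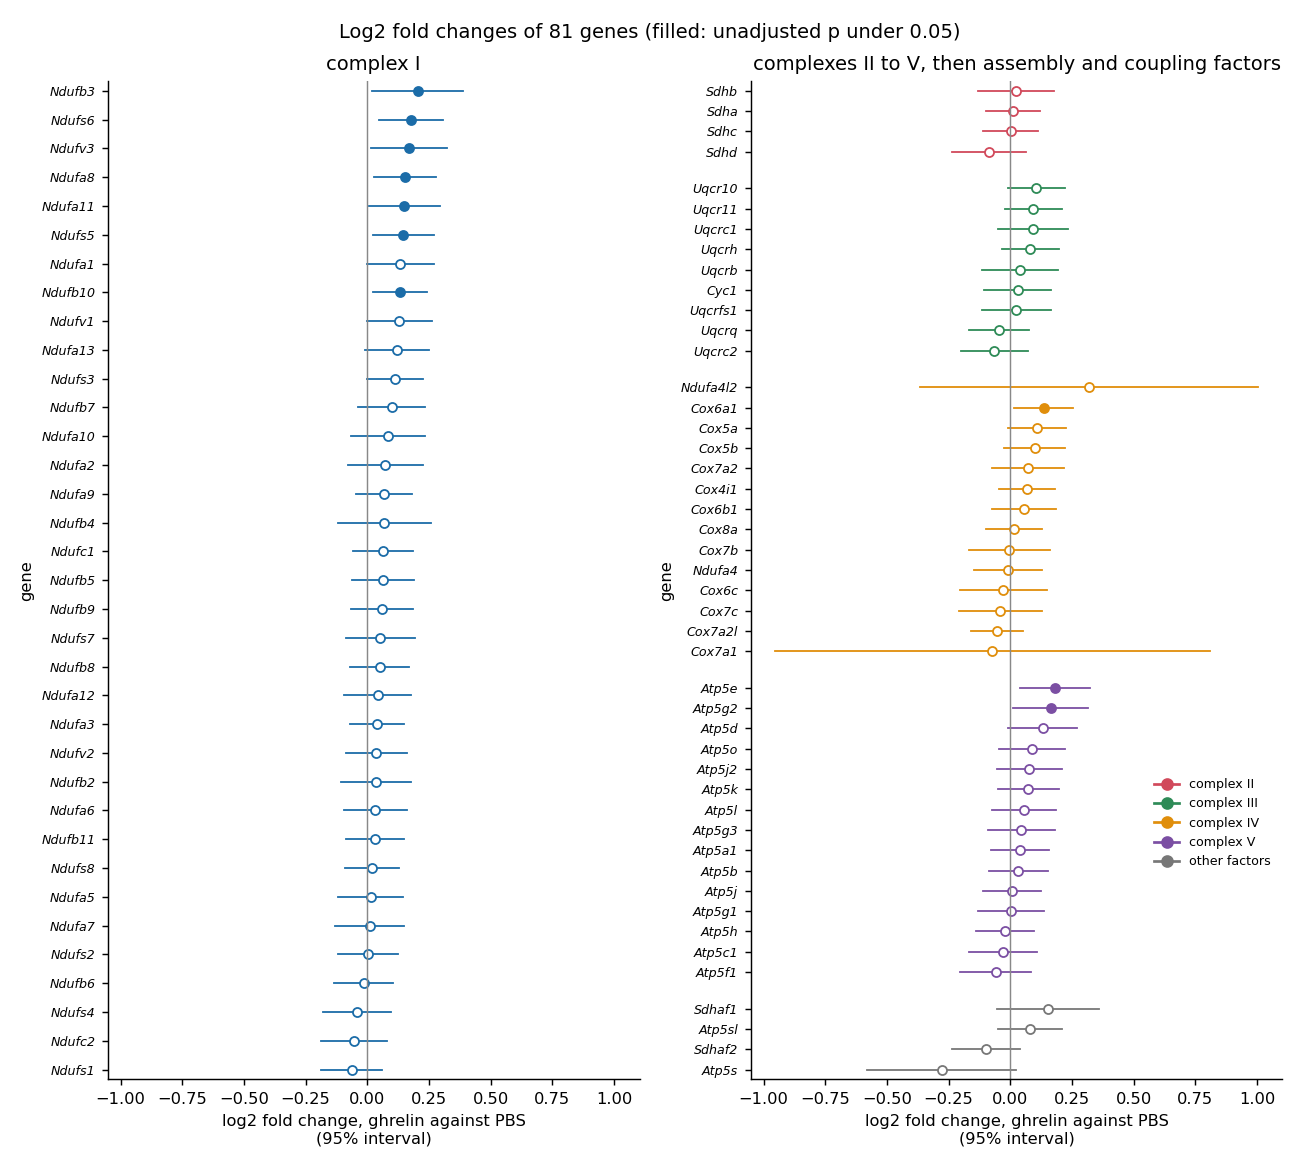
Log2 fold change of each of the 81 tested members (x axis, ghrelin against PBS) with its 95% interval, by complex and ordered by value. Filled points mark the 10 genes at an unadjusted p under 0.05, all to the right of 0, and the widest intervals belong to the low genes Cox7a1 and Ndufa4l2.

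In complex V, 12 of 15 genes were positive with a median of 0.05 (11 of 15 and 0.04 with the trends removed). In both fits 2 of 15 were higher at an unadjusted p under 0.05. Of all genes 6.44% were, and 884 of 14170 with the trends removed. Atp5e, the epsilon subunit of the central stalk, ran from 52.8 over a median of 60.9 to 67.1 CPM in PBS and from 63.3 over 68.1 to 76.1 with ghrelin (0.18, SE 0.07; edgeR adjusted p = 0.273). Its groups overlapped, and the log2 fold change was 0.16 with the trends removed. Atp5g2, the c ring gene with the NRF1 word, ran from 13.3 over 14.3 to 16.1 CPM and from 14.1 over 16.4 to 17.5 with ghrelin (0.16, SE 0.07; edgeR adjusted p = 0.339), and 0.06 with the trends removed. Its lowest ghrelin library lay below the PBS median. Atp5d, the delta subunit of the stalk, had 115 ± 9.21 and 127 ± 9.13 CPM (0.13, SE 0.07). Atp5o, the peripheral stalk subunit that binds the catalytic head, had 152 ± 8.58 and 162 ± 13.2 (0.09, SE 0.06). With the trends removed the log2 fold changes were 0.05 for Atp5d and 0.07 for Atp5o. Exons of Atp5o overlap another gene of the same name on the same strand, and D430001F17Rik and Gm15976 on the opposite one. Those of Atp5g2 overlap Mir688 on the same strand. The subunits of the catalytic head differed by less than their SD, with Atp5b at 1109 ± 64.4 and 1134 ± 49.4 CPM (0.03, SE 0.06) and Atp5a1 at 914 ± 46.7 and 940 ± 38.8 (0.04, SE 0.06).

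**Figure D4:**
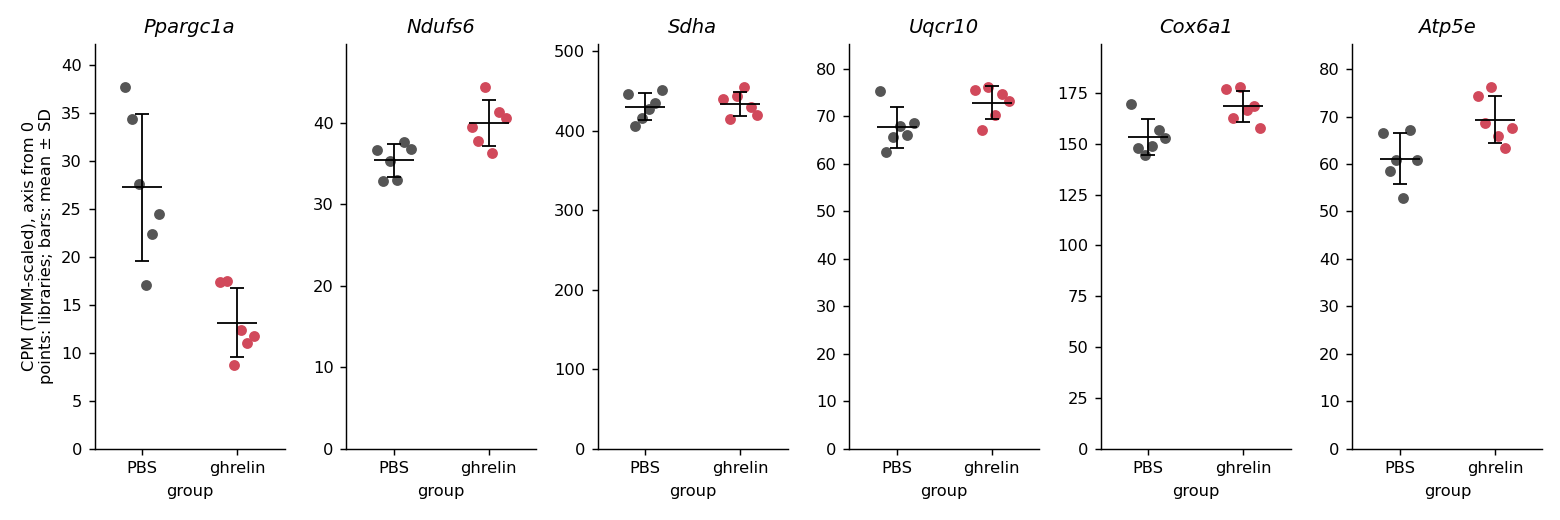
CPM in each of the 12 libraries (points) with mean ± SD (bars) for Ppargc1a and 5 members, each axis from 0. Ppargc1a has means of 27.3 in PBS and 13.2 with ghrelin, while the members differ by at most 0.18 on the log2 scale and their groups overlap.

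The coupling factor Atp5s, named here after its values were seen, had the lowest log2 fold change of all members, -0.28 (SE 0.14; edgeR adjusted p = 0.414), with 3.60, 4.20 and 5.93 CPM as lowest, median and highest PBS values and 2.57, 3.75 and 4.08 with ghrelin. It is a low gene whose PBS 6 library lies far above the other 5.

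The complexes differed from library to library, in part together. The mean log2 CPM of the 79 members above 1 CPM was 6.29 to 6.42 in PBS and 6.32 to 6.46 with ghrelin, with means of 6.35 ± 0.06 and 6.40 ± 0.06, a difference of 0.05. The ghrelin 1 and ghrelin 3 libraries were the highest, at 6.45 and 6.46, and PBS 2 the lowest, at 6.29, with PBS 1 (6.42) above 3 of the ghrelin libraries. Members made up 0.975 ± 0.0356% of all counts in PBS and 1.001 ± 0.0509% with ghrelin. In bulk tissue, a change in the share of a cell type and a change of RNA per cell cannot be told apart.

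**Figure D5:**
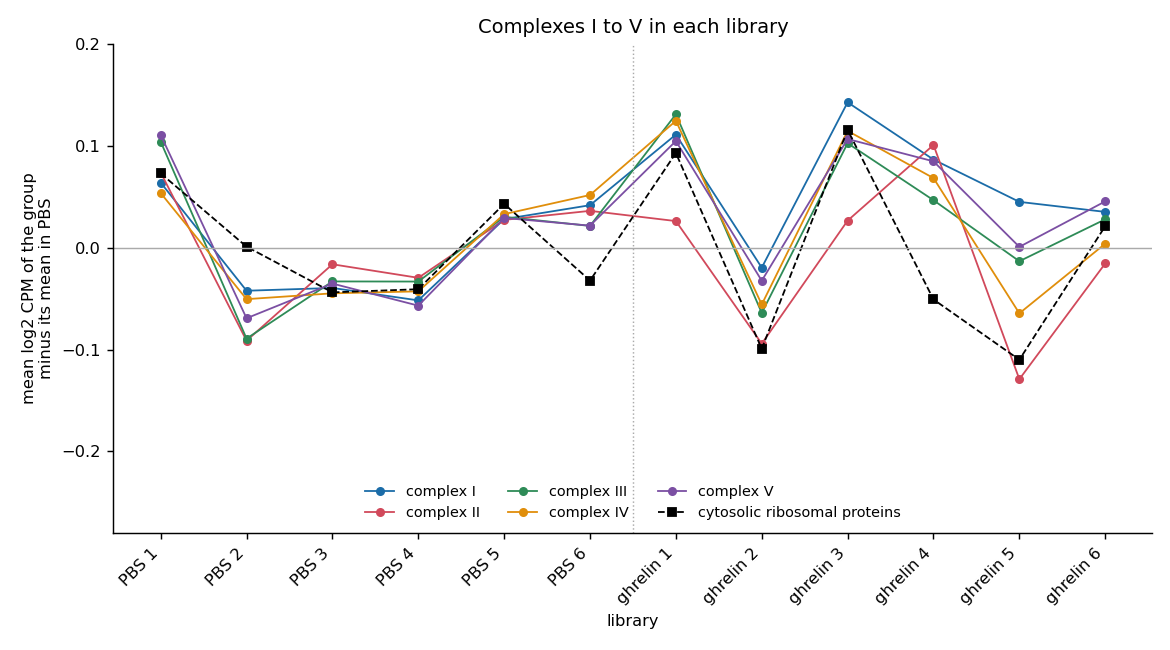
Mean log2 CPM of the genes of each complex and of 79 cytosolic ribosomal proteins in each library (x axis), as a difference from the group's PBS mean. All complexes are below 0 in PBS 2, PBS 3, PBS 4 and ghrelin 2, and complexes I, III, IV and V are above 0.05 in PBS 1, ghrelin 1 and ghrelin 3. In ghrelin 5 they spread from -0.13 (complex II) to 0.04 (complex I).

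After group means were removed, the median Pearson r between pairs of members over the 12 libraries was 0.38 (3081 pairs). Within complexes it was 0.35 (I), 0.46 (II), 0.53 (III), 0.44 (IV) and 0.48 (V). It was 0.57 for the cytosolic ribosomal proteins, 0.16 for the mitochondrial ribosomal proteins and 0.00 for an evenly spaced set of 1301 tested genes. These values share depth, scaling and library composition, and describe the libraries only. In the ribosomal proteins the ghrelin 1 and ghrelin 3 libraries were also highest, at 6.76 and 6.79 log2 CPM, but the group means were 6.67 ± 0.05 in PBS and 6.67 ± 0.10 with ghrelin, with 34 of 79 positive.

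The 8 members with the NRF1 word all had positive log2 fold changes, with a median of 0.11, and 6 of 8 did with the GC content and length trends removed (median 0.06), where Atp5k was at -0.01 and Uqcr11 at -0.0047. Without the word, 46 of 60 tested members had positive values, with a median of 0.04. Among all 344 tested genes with the word, 49.7% were positive with a median of -0.0013. The estrogen-related receptor word gave 7 positive of 8 members (median 0.06), beside 47 of 60 without it (median 0.05). Over its 298 tested genes, 58.4% were positive with a median of 0.03. With the trends removed 6 of these 8 members were positive (median 0.05). For the ETS word 13 of 17 members were positive (median 0.06), beside 41 of the 51 without it and 48.8% of all tested genes with it. With the trends removed 8 of the 17 were positive and their median was -0.0047. For the YY1 word 6 of 7 were positive (median 0.07), beside 48 of 61 without it and 49.0% of all tested genes with it, and 5 of 7 with the trends removed (median 0.06). The CREB word gave 4 positive of 4 members, beside 50 of 64 without it, and the SP1 word 22 of 28, beside 32 of 40 without it. No test of these groups was made.

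Among the transcripts of regulators of mitochondrial biogenesis and mitochondrial DNA expression, 0 of 28 were called. At an unadjusted p under 0.05, 0 were higher and 6 lower (21.4%, beside 6.94% of all genes). This list had a median transcript length of 4227.5 nt and GC content of 44.9%, beside 3109 nt and 49.3% for all tested genes. The part of length and GC content in the counts of this list and of the lists below was not tested. Ppargc1a, the coactivator PGC-1alpha, ran from 17.1 over a median of 26.1 to 37.7 CPM in PBS and from 8.76 over 12.1 to 17.5 CPM with ghrelin. The lowest PBS value lay below the 2 highest ghrelin values and above the other 4. Its log2 fold change was -1.06 (SE 0.20; edgeR adjusted p = 0.0564), the adjusted p ran from 5.97e-05 to 0.159 over 23 alternatives, and it was under 0.05 in 6 of them (DESeq2, no filter on low counts, both fits with a replicate block, and without PBS 4 or PBS 5).

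The partners of PGC-1alpha differed less. Gabpa had 67.6 ± 5.11 CPM in PBS and 61.2 ± 4.09 with ghrelin (-0.14, SE 0.06; edgeR adjusted p = 0.340); it overlaps Atp5j on the opposite strand. Nrf1 had 12.3 ± 0.685 and 11.4 ± 1.82 CPM (-0.10, SE 0.10), Esrra, estrogen-related receptor alpha, 13.4 ± 1.62 and 14.2 ± 1.66 (0.08, SE 0.10), and Tfam, which packages mitochondrial DNA, 34.8 ± 1.75 and 32.8 ± 1.91 (-0.09, SE 0.06). Ppargc1b, the related coactivator, had 4.20 ± 2.05 and 5.59 ± 0.721 CPM (0.40, SE 0.24). In all 5 the groups overlapped.

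The other mitochondrial lists gave no called gene. Of 24 electron carriers and further genes of the chain, 14 of the 23 tested were positive, with 3 higher (13.0%, beside 6.44% of all tested genes) and 3 lower (13.0%, beside 6.94%) at an unadjusted p under 0.05. The electron transfer flavoprotein subunit Etfb had 144 ± 9.21 and 160 ± 10.5 CPM (0.16, SE 0.06). Among 33 assembly factors 20 were positive, 3 higher (9.09%) and 1 lower (3.03%), with Ecsit, a complex I assembly factor, at 29.0 ± 3.19 and 33.9 ± 2.54 CPM (0.23, SE 0.08). The 75 mitochondrial ribosomal proteins had 47 positive values, 6 higher (8.0%) and 2 lower (2.67%), and a median of 0.03. Mrpl28, of the large subunit, was the gene of these 3 lists whose groups did not overlap (1 of 75, beside 0.367% of all genes), with 27.2 ± 1.29 and 31.3 ± 1.19 CPM (0.21, SE 0.05; edgeR adjusted p = 0.147, DESeq2 adjusted p = 0.0373, over 23 alternatives 0.0373 to 0.375).

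Of 25 genes of the cycle and of pyruvate dehydrogenase 8 had positive and 17 negative values, with a median of -0.03. At an unadjusted p under 0.05, 1 was higher (4.0%, beside 6.44% of all tested genes) and 3 lower (12.0%, beside 6.94%). Of the tested genes with a mean log2 CPM over 4, 7.01% were higher and 10.6% lower at that level. Pdp2, a phosphatase that activates pyruvate dehydrogenase, had 31.3 ± 5.29 and 41.5 ± 7.19 CPM (0.41, SE 0.12; edgeR adjusted p = 0.202). Among 20 tested mitochondrial carriers 8 were positive, 2 higher (10%) and 0 lower at that level, with Slc25a30 at 10.6 ± 3.54 and 15.3 ± 4.80 CPM (0.51, SE 0.22). Of 28 import, cristae and dynamics genes 14 were positive, 2 higher (7.14%) and 0 lower, with the fission protein Fis1 at 36.7 ± 1.52 and 40.6 ± 1.32 CPM (0.14, SE 0.05). Of 10 antioxidant genes 7 were positive, 2 higher (20%) and 0 lower, with glutathione peroxidase Gpx1 at 1078 ± 141 and 1276 ± 91.5 CPM (0.24, SE 0.08). The 16 chaperone and protease genes gave 9 positive and 0 at an unadjusted p under 0.05; Clpx had 198 ± 53.0 and 252 ± 67.4 CPM (0.35, SE 0.19). Rplp0 of the cytosolic ribosome had 303 ± 12.9 and 334 ± 17.8 CPM (0.14, SE 0.05).

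Total counts were 18746597 to 22302533 per library in PBS and 15775059 to 21457627 with ghrelin. Hepatocyte markers (7 of 7 tested) summed to 92672 ± 10609 CPM in PBS (78803 to 111061) and 83061 ± 5403 with ghrelin (73810 to 89724). Of these 7, 2 were at an unadjusted p under 0.05, both lower, beside 6.94% of all tested genes lower and 6.44% higher. Neutrophil markers summed to 8.41 ± 2.26 (6.13 to 12.4) and 4.65 ± 1.70 CPM (2.64 to 6.40), with 2 of 4 tested lower at that level and 0 of the 6 listed at 0. Kupffer cell markers (6 tested) summed to 243 ± 48.7 and 233 ± 29.1 CPM and 6 endothelial markers to 349 ± 16.9 and 352 ± 10.8, with 0 at that level. Stellate cell markers (8 tested) had 1 higher and 1 lower at that level, and erythroid markers (4 tested) 1 higher. Cholangiocyte (4 tested), lymphocyte (1), adipocyte (1) and proliferating cell markers (4) had 0. Ucp1 was at 0 in all libraries. The part of these marker differences in the members' values was not tested.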

How the data were processed

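Liver RNA was sequenced as total RNA after ribosomal RNA depletion with a stranded kit, per the labels' protocols. The deposited table holds raw counts per gene, which the authors did not normalize, and the submitters' processing notes name STAR 2.4.0i and the build mm10. How reads were assigned to genes (tool, strand, reads with several positions) is not given in the sources used here. Members with pseudogenes or with exons that overlap other genes (5 on the same strand, 28 on the opposite one) are uncertain. Groups came from the titles and treatment labels. No label says that each library is a separate animal, and p-values then measure only the spread between these samples.

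Counts were filtered with filterByExpr (minimum count 10, minimum total 15), which left 14170 genes, scaled by TMM and tested by the two-sided quasi-likelihood F test of edgeR 4.0.16 in R 4.3.3, with Benjamini-Hochberg adjustment over all genes and a threshold of 0.05. The SE of a log2 fold change is its size divided by the square root of F. RPKM divides TMM-scaled CPM by the median length of the principal coding transcripts in GENCODE M21 (GRCm38), matched for 88 of 88 members. GC content and length trends were fitted with mgcv 1.9.3 and entered as offsets. These trends, and the correlations with length and GC content, used the longest transcript of each gene in place of the principal one. The lengths are far apart for some members, such as Atp5l (principal 544 nt, longest 6310 nt) and Atp5e (421 and 1697 nt). How the values with the trends removed depend on this choice was not tested. DESeq2 1.42.0, limma 3.58.1, other scalings and filters, a replicate block and each library left out were alternatives. The scripts were tested on simulated data. Pairs of libraries in a group differed by 11.7 to 48.6 times the counting variance (chi-square per degree of freedom), so each was counted as 1 sample. Counting limits cover counting error only, since reads carry no molecular identifiers.

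Members, gene lists, motif words and placements were chosen with earlier results of these data known. The rule for named genes takes the 4 smallest p in complexes I, III, IV and V, all Sdh genes, the highest and lowest level per length of each complex, isoform groups, members below the filter, 6 preset regulators and up to 3 genes with the smallest p of each list, of which the text gives the first. Other genes, such as Ndufv1, Ndufs1, Ndufs3, Cyc1 and Atp5s, were named for their role or after their values were seen.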

Additional observations from a re-analysis of the deposited data

Results flagged for a closer look

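In 94 groups of 6 libraries examined, 4 values lay apart from the other libraries of their group by more than the 95% limit of Dixon's test, which chance passes in about 1 in 20 groups. Atp5s, the coupling factor, was at 5.93 CPM in PBS 6, where the other PBS libraries had 3.60 to 4.30, and at 2.57 CPM in ghrelin 3, where the others had 3.53 to 4.08. Etfb, the electron transfer flavoprotein subunit, was at 161 CPM in PBS 1, with 137 to 143 in the others. Fis1, the fission protein, was at 39.6 CPM in PBS 5, with 35.6 to 36.8 in the others.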

How the results depend on the processing

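No member was called in any of the 23 alternatives, and 49 to 70 members had a positive log2 fold change, against 63, with medians of 0.01 to 0.07. Members at an unadjusted p under 0.05 numbered 17 with upper-quartile scaling, 6 with no filter on low counts, 5 with GC content and length trends removed and 6 with these and the replicate block together, and 5 to 14 with a library left out, against 10. Among all genes, 1063 were higher at that level with upper-quartile scaling and 884 with the trends removed, against 913. Genes called numbered 63 with no filter, 9 with robust estimation, 202 with DESeq2, 58 with the replicate block, 9 with the trends removed, 24 with both and 0 to 32 with a library left out, against 15. For the omitted library, the number called was 0 for ghrelin 1 or ghrelin 3, 5 for PBS 3, 6 for ghrelin 6, 9 for ghrelin 2, 23 for PBS 6, 24 for PBS 5 and 32 for ghrelin 4. The cause of these moves was not tested. With the trends removed, the sign turned for Uqcr11 (-0.0047, and -0.0072 with the replicate block), Cox4i1 (-0.0220 and -0.0224) and Sdhb (-0.0315 and -0.0332). The sign of Sdhc turned with no filter (-0.0040). With a library left out, Sdha ranged from -0.0012 to 0.0282, Sdhb from -0.0060 to 0.0591 and Sdhc from -0.0124 to 0.0303. The complex II median ran from -0.01 to 0.02 over the alternatives. Same-numbered libraries of both groups had deviations correlated at -0.08 to 0.27, and 1 of 6 numbers correlated best with its own, so the numbers were not used as pairs. Under the replicate block 10 members were at an unadjusted p under 0.05 (9 higher and 1 lower, beside 966 and 1131 of 14170 genes), and 0 were called. The use of the length of all annotated exons was added after the data were seen. Depth limits the 7 members below the filter, at 1 to 77 counts each over 12 libraries, for which a change could not be measured.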
